A study of Zea mays with 2 samples.

Results

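Broad KN1 peaks are the stretches of at least 1200 bp over which chromatin recovered with tagged KN1 exceeded input. They were chosen by width from the deposited peak table, among peaks on chromosomes 1 to 10 that had been assigned to a gene with a Zm00001d identifier, and each peak was counted once. This gave 1049 broad peaks among 21079 peaks under the same gene and chromosome rule, or 4.98%, out of 21437 listed peaks in all. Width is itself a product of the peak call, so width, fold enrichment, pileup and q-value are described here without any test. Positions relative to genes and along chromosomes did not enter the rule.

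The data are from ChIP-seq, in which DNA bound by a protein is recovered and sequenced, on leaf protoplasts of the maize inbred line B73. Protoplasts are plant cells without walls. They came from seedlings that had been kept in the dark to etiolate, and were transfected with the p1107-KN1 plasmid for overexpression of KN1 carrying a biotin ligase recognition peptide (BLRP). The study holds 1 ChIP library and 1 input library of these transfected cells, both sequenced as single-end 75-bp reads, so no value has a replicate error, and a library from cells without tagged KN1 was not analysed here.

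KN1 (KNOTTED1) is the founding plant member of the KNOX class of homeodomain transcription factors. It is known for keeping cells of the shoot meristem undifferentiated and is normally switched off as leaf primordia form, so a leaf protoplast is a cell in which it is supplied from outside. KNOX proteins bind DNA together with partner proteins of the BELL class, through short recognition sequences that recur many times in a plant genome. A peak caller draws a peak as the stretch over which the pileup of reads passes a threshold, so a broad peak may hold 1 strong site with long flanks or several sites close together, and the deposited table gives only 1 summit for each.

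The broad peaks covered 1622 kb of the 11520 kb under all peaks, or 14.1% of the covered bases. The median was 1435 bp wide, with quartiles of 1295 and 1685 bp, and a long tail stretched above them. A width of 1200 bp to under 1500 bp was found for 603 peaks, 1500 bp to under 2000 bp for 338 and 2000 bp or more for 108. Only 7 peaks reached 3000 bp, and the widest spanned 4243 bp. The threshold cuts through a continuous distribution, with 155 peaks in the 50 bp below it and 134 in the 50 bp above, at median folds of 29.9 and 29.8. The 3 peaks just inside it were 1200, 1201 and 1202 bp wide, with folds of 25.2, 24.6 and 18.6. The 3 just outside were all 1199 bp wide, with folds of 16.5, 33.3 and 43.5.

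Fold enrichment is the authors' ratio of ChIP to input at the summit, with input taken at no less than a genome-wide background. The median fold of the broad peaks was 35.4 (quartiles 23.1 and 50.5), against 9.47 over all 21079 peaks. A fold of at least 20 was reached by 849 of 1049 broad peaks (80.9%), and by 22.4% of all peaks. Since the rule rests on the same comparison of ChIP with input, nothing is read from that contrast. The median pileup, the number of extended reads stacked at the summit, was 102 (range 18 to 264), and the median −log10 q was 132 (range 10.2 to 451). Where the input level stands at that background, fold is the pileup rescaled, so fold and pileup are not separate evidence. Of the broad peaks, 17 had a fold under 10. The depth behind even these was at least 18 stacked reads at the summit.

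Fold followed width less closely in broad peaks than in narrower ones. Among the narrower peaks the rank correlation of width and fold was 0.79 (Spearman rho, 20030 peaks), and among the broad ones it was 0.21 (1049 peaks). Peaks share 1 pair of libraries and 1 threshold, so these are descriptions, and cutting off the lower widths by itself narrows the range over which a correlation can show. From the side of fold, broad peaks made up 12.4% of 3282 peaks with a fold of 20 to under 40, 28.8% of 1058 from 40 to under 60 and 42.0% of 50 at 80 or more. Most of the 50 strongest peaks were therefore narrower than 1200 bp, and the strongest listed peak of all, with a fold of 97.1, fell in the class of 600 bp to under 900 bp. The highest fold of a broad peak was 92.9.

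**Figure D1:**
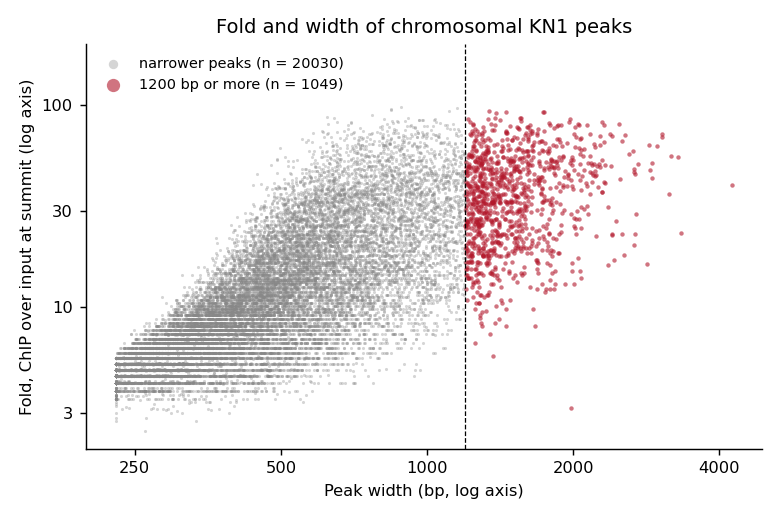
Fold enrichment at the summit against peak width for 21079 chromosomal peaks, both on log axes, with the 1049 peaks of at least 1200 bp in red and the dashed line at 1200 bp. Left of the line fold climbs with width; right of it folds from below 10 to 92.9 occur at similar widths.

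Raised input was about as frequent in broad as in narrower peaks. The input level used for the summit stood at its floor, the genome-wide background of 1.85, in all but 82 broad peaks (7.82%). It was raised in 7.94% of the narrower peaks. Input below the floor does not show in these values, so lower levels could not be compared. The 1 broad peak with an input level above 4 times the background was the one on chromosome 5 from 84633210 to 84635185. It was 1976 bp wide and overlapped the start of Zm00001d015327, with an input level of 72.9, a pileup of 235 and a fold of 3.19, the lowest of all broad peaks. Next lowest were a peak of 1367 bp on chromosome 7 across the start of Zm00001d021932, with a fold of 5.73, and one of 1257 bp on chromosome 5 upstream of Zm00001d014773, with a fold of 6.66.

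The 10 widest peaks lay in every kind of position. The widest, on chromosome 8 from 171081255 to 171085497, covered 4243 bp and reached across the start of Zm00001d008143, a gene model at 171081100 to 171081391 on the minus strand. Its summit stood 1846 bp upstream of that start, with a fold of 40.3 and a pileup of 114 reads. The next, also on chromosome 8 (176890446 to 176893788, 3343 bp), ran over the whole of Zm00001d012585, a gene of 726 bp, with a fold of 23.3. A peak of 3295 bp on chromosome 3 (190353098 to 190356392) overlapped the start of Zm00001d043156 with a fold of 55.04, and its summit stood 2112 bp upstream. Wholly outside genes were a peak of 3183 bp on chromosome 3 (175957790 to 175960972), 3692 bp beyond the end of Zm00001d042665, with a fold of 55.7, and one of 3149 bp on chromosome 9 (147884377 to 147887525), 1033 bp upstream of Zm00001d048008, with a fold of 36.5.

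Gene ends and gene interiors also carried peaks of this size. On chromosome 3 a peak of 3050 bp (211318011 to 211321060) overlapped the end of Zm00001d043837 and had a fold of 72.2, the highest among the 10 widest. On chromosome 5 a peak of 3048 bp (151135048 to 151138095) overlapped the end of Zm00001d016228, with its summit 165 bp past that end and a fold of 69.8. Another on chromosome 5, of 2978 bp (95181493 to 95184470), crossed the start of Zm00001d015515 with a fold of 62.7. The only one of the 10 that lay within a gene was the peak of 2912 bp on chromosome 5 (173405329 to 173408240) inside Zm00001d016708, a gene of 4467 bp on the plus strand, with its summit 432 bp before the gene end and a fold of 51.5. The last of the 10, on chromosome 2 (215375478 to 215378379, 2902 bp), lay 769 bp beyond the end of Zm00001d006726, with a fold of 43.5. Of these 10 genes, 4 had a second broad peak. Coordinates are those of the authors' table, whose gene identifiers are of the B73 assembly AGPv4. None of the 1035 identifiers with a broad peak is paired with a symbol in the RefSeq gene table, so gene functions are not described here.

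Most of the ground covered by classified broad peaks was outside the gene assigned to them. Of the 1049 peaks, 1015 had a summit whose class was the same for every gene assigned to the peak, and 34 were left out because their 2 genes gave different classes. The peaks of these 1015 held 1188 kb outside and 381 kb inside their assigned gene, so that 75.7% of the bases were outside. Bases in any other gene count as outside here. The same share was not computed for narrower peaks, so it is not read as a trait of broad ones. The listed peaks reach at most 4998 bp from a gene edge, and peaks farther away were not analysed here.

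By placement of the whole peak, the largest group, 315 peaks (31.0%, exact Clopper-Pearson 95% interval 28.2 to 34.0%), overlapped the start of the gene and not its end. The share in narrower peaks was close to this, at 28.1%. A further 253 (24.9%) lay upstream without touching the gene and 185 (18.2%) lay downstream without touching it, against 28.2% and 18.8% of narrower peaks. The gene end and not the start was overlapped by 134 peaks (13.2%, 11.2 to 15.4%), against 5.60% of narrower peaks. Only 99 (9.75%, 8.00 to 11.7%) lay within a gene, against 18.9% of narrower peaks. A group of 29 peaks (2.86%, against 0.35% of narrower peaks) covered a whole gene, and those gene models were short, with a median of 471 bp. A wider peak can meet a gene boundary more often and lie within a gene less often whatever its centre. How far these contrasts follow from the width itself was not tested. All intervals cover only the counting of peaks in 1 ChIP and 1 input library, and peaks close to each other are not independent.

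**Figure D2:**
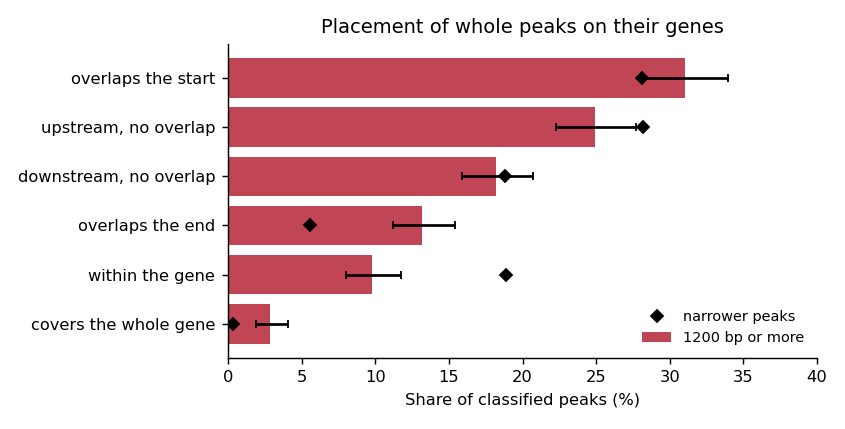
Share of classified peaks in each placement relative to the assigned gene, with bars for 1015 broad peaks, exact 95% intervals as error bars, and black diamonds for 19887 narrower peaks. Overlap with the gene start was the largest class of broad peaks at 31.0%, against 28.1% of narrower peaks. Broad peaks overlapped gene ends more often and lay within genes less often than narrower peaks. Peaks of 900 bp to under 1200 bp, not drawn apart, stood between them, at 10.4% and 13.2%.

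The fold differed little between these placements outside the gene body. The median was 36.8 for peaks over the start, 35.1 for those wholly upstream, 38.2 for those wholly downstream and 36.5 for those over the end. Peaks within genes had a lower median of 27.3 (quartiles 18.2 and 44.7), and peaks over a whole gene one of 41.4. For the upstream group the median distance from peak edge to gene start was 1236 bp (quartiles 518 and 2328 bp), and for the downstream group the edge lay a median of 972 bp (378 and 2059 bp) beyond the gene end.

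Broad peaks over a gene start extended mainly away from the gene. Among the 315, the median stretch upstream of the start was 1115 bp (quartiles 840 and 1344 bp), whereas the median stretch inside the gene was 307 bp (158 and 583 bp). In 261 of 315 (82.9%) the upstream part was the longer one, against 3056 of 5590 (54.7%) narrower peaks over a start. The summit lay upstream in 264 of them (83.8%, 79.3 to 87.7%). In the other 51, the median stretch inside the gene was 1026 bp and the upstream stretch 474 bp, with a median fold of 30.5 against 39.3. Peaks of 900 bp to under 1200 bp over a start already had this shape, with the longer part upstream in 81.1% of 402. Inside the gene, the median stretch was 209 bp in all narrower peaks, 273 bp in these 402 and 307 bp in broad ones. The upstream stretch had medians of 242, 725.5 and 1115 bp in the same order.

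**Figure D3:**
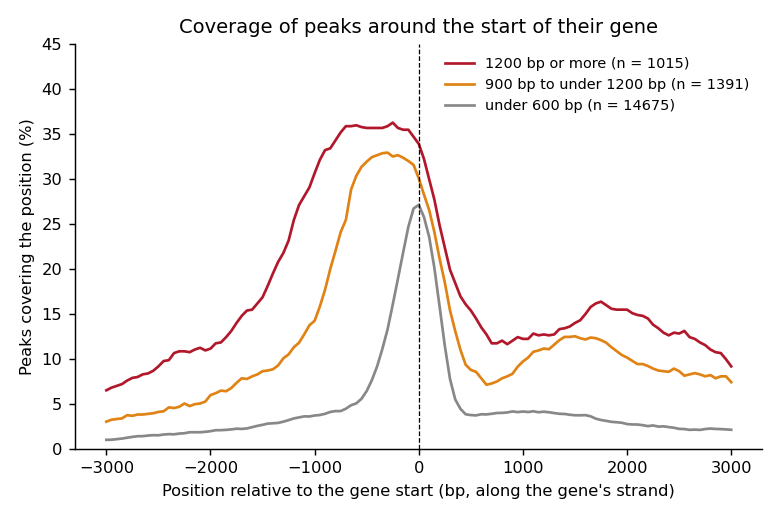
Percentage of classified peaks that cover each position from 3000 bp before to 3000 bp after the start of the assigned gene, along the gene's strand, in 50-bp steps, for 3 classes of width. Peaks under 600 bp pile up at the start itself (27.1% at 0), whereas broad peaks are highest at −250 bp (36.3%) and still cover −1000 bp in 30.6% of cases, against 12.2% at 1000 bp past the start.

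The summit is a single point, yet it lay a median of 454 bp from the nearer peak edge in broad peaks and 186 bp in narrower ones. Whether width alone thereby moves summits away from gene starts or out of genes was not tested. By summit, 532 of 1015 broad peaks (52.4%, 49.3 to 55.5%) were upstream of their gene, 194 (19.1%, 16.7 to 21.7%) inside it and 289 (28.5%, 25.7 to 31.4%) downstream. The corresponding shares among 19887 narrower peaks were 44.5%, 33.5% and 22.1%. The share inside genes was thus 14.3 percentage points smaller in broad peaks (19.1% against 33.5%, 95% interval of the difference 11.7 to 16.8 points). Among peaks with a fold of at least 35.4, the median of the broad ones, 73 of 515 broad peaks (14.2%) and 243 of 1395 narrower ones (17.4%) had their summit inside the gene. The difference was −3.24 points, with an interval from −6.82 to 0.60. This comparison was chosen after seeing the data, and the median fold above that limit was 50.5 in broad and 45.2 in narrower peaks.

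The concentration of KN1 summits next to gene starts was weaker in the broad peaks. A summit within 500 bp of the start was found in 199 of 1015 (19.6%, 17.2 to 22.2%), against 38.0% of narrower peaks. Both sides of the start contributed, since 15.3% of broad peaks had their summit in the 500 bp before it, against 22.6%, and 4.14% in the first 500 bp of the gene, against 15.2%. Farther out the order turned, with 12.7% of broad summits at 1 to 2 kb upstream (10.7 to 14.9%) against 7.06% of narrower ones, and 12.7% beyond 2 kb against 8.64%. The median upstream summit of a broad peak lay 947 bp from the gene start (quartiles 450 and 1921 bp), and that of a narrower one 481 bp (167 and 1563 bp). Among peaks with a fold of at least 35.4, a comparison chosen after seeing the data, the summit was within 500 bp of the start in 106 of 515 broad peaks (20.6%) and 474 of 1395 narrower ones (34.0%). The difference was −13.4 points (95% interval −17.7 to −8.89).

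Within the broad class the same quantities varied with width. The share of summits within 500 bp of the start was 21.9% at 1200 bp to under 1500 bp, 16.1% at 1500 bp to under 2000 bp and 17.6% at 2000 bp or more. The intervals of neighbouring classes overlap (18.6 to 25.5%, 12.3 to 20.5% and 10.8 to 26.4%). Downstream summits made up 25.5%, 31.0% and 37.3% in these classes, and the ratio of upstream to downstream summits was 2.15, 1.61 and 1.26. With 102 classified peaks in the widest class, the interval of its downstream share, 27.9 to 47.4%, overlaps that of the 1200 bp to under 1500 bp class (22.0 to 29.3%). The 1391 classified peaks of 900 bp to under 1200 bp were close to the broad peaks in most respects, with 50.2% of summits upstream, 22.0% inside and 27.8% downstream, and 25.8% within 500 bp of the start. The shares did not change evenly with width. Near the start the share was 39.4% under 600 bp and 37.1% at 600 bp to under 900 bp, so its largest drop between neighbouring classes lay below 1200 bp. No step stood out at 1200 bp, where the intervals on either side overlap (23.5 to 28.2% and 18.6 to 25.5%).

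**Figure D4:**
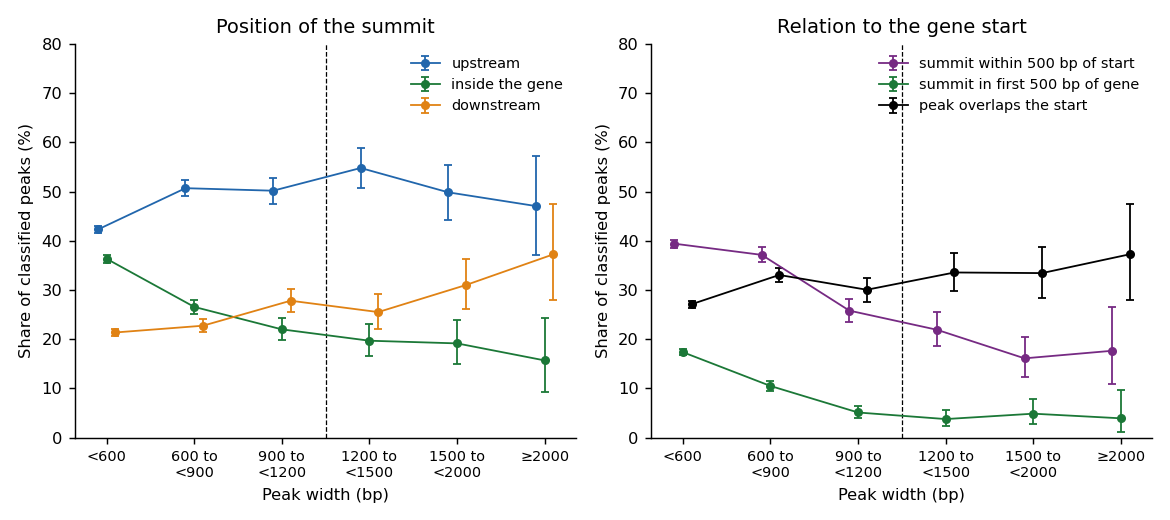
Share of classified peaks by width class, with exact 95% intervals, for the position of the summit relative to the gene (left) and for nearness to the gene start (right); the dashed line marks 1200 bp. Summits within 500 bp of a start fall from 38% over all narrower peaks to 19.6% in broad ones, while the share of peaks that overlap a start is 28.5% and 33.9%.

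The position of the summit within the peak was loose. It lay at a median of 0.50 of the peak length (quartiles 0.32 and 0.70), so on average in the centre. Only 250 of 1049 summits (23.8%) were in the central 20% of the peak length, against 59.7% in narrower peaks. Peaks of 900 bp to under 1200 bp were already close to the broad ones, with 28.3% of summits there. In 171 (16.3%, 14.1 to 18.7%) the summit stood in the first or last 20%, against 1.72% of narrower peaks. That share was 4.46% at 900 bp to under 1200 bp and 25.9% at 2000 bp or more. Both shares are fractions of the width, on which the rule rests. The nearer edge was a median of 454 bp from the summit, and never less than 176 bp. The peak of 3050 bp over the end of Zm00001d043837 is an example, with its summit 357 bp from one edge.

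Each of the 5 broad peaks of highest fold had input at the background. The first, on chromosome 1 from 275463480 to 275464821, was 1342 bp wide and lay 2249 bp beyond the end of Zm00001d033840 (minus strand), with a fold of 92.9 and a pileup of 264 reads. No other listed peak was found within 28292 bp of it. The second, on chromosome 9 from 99795027 to 99796757, overlapped the end of Zm00001d027145, a gene of 426 bp, with a fold of 92.5 and its summit 921 bp past the end. The third, on chromosome 2 from 226467373 to 226469112, lay 268 bp upstream of Zm00001d007274 with its summit 1733 bp from the start and a fold of 92.2. It was also the strongest broad peak with an upstream summit. A peak on chromosome 9 from 31343067 to 31344519 and another on chromosome 6 from 165991011 to 165992395, overlapped the ends of Zm00001d027075 and Zm00001d038859, with folds of 91.8 and 91.1. Of these 5 summits, 4 were downstream of the assigned gene. The strongest broad peak with its summit inside a gene was on chromosome 7 from 164522430 to 164523807, where it overlapped the end of Zm00001d021851 with a fold of 86.2.

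Broad peaks often lay near other KN1 peaks. Another listed peak lay within 2 kb of 670 of the 1049 (63.9%, 60.9 to 66.8%), against 47.6% of narrower peaks, and the median gap to the nearest listed peak was 1095 bp against 2313 bp. Peaks of 900 bp to under 1200 bp were close to the broad ones, at 61.6% (59.0 to 64.2%) and a median gap of 1151 bp. On both sides a peak lay within 2 kb of 163 broad peaks (15.5%), against 9.87% of narrower ones. That share was 14.8% at 900 bp to under 1200 bp. The next listed peak on one side was itself broad and within 2 kb for 75 (7.15%, 5.66 to 8.88%). The same held for 3.68% of narrower peaks and for 4.74% (3.69 to 5.98%) of those of 900 bp to under 1200 bp. Among peaks with a fold of at least 35.4, a neighbour lay within 2 kb of 342 of 533 broad peaks (64.2%) and 851 of 1412 narrower ones (60.3%), and the difference of 3.90 points had an interval from −1.05 to 8.73. This comparison was chosen after seeing the data. Gaps between listed peaks were never under 73 bp, and peaks absent from the table may make true gaps shorter.

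When listed peaks with gaps of up to 500 bp were joined, the broad peaks fell into 1027 runs, and 305 of these (29.7%) held at least 1 other peak, with a median span of 2426 bp. Just 20 runs held 2 or more broad peaks. The longest run with a broad peak was on chromosome 4 from 178301298 to 178307371, next to Zm00001d052066 and Zm00001d052067. It spanned 6074 bp, with 6 peaks that covered 4706 bp, 1 of them broad, and a highest fold of 77.5. This run was singled out after its values were seen.

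A broad peak was assigned to 1035 genes, of which 976 had 1, 57 had 2 and 2 had 3. One of the genes with 3 is Zm00001d034109 on chromosome 1 (284176337 to 284179392, minus strand). Its broad peaks, of 1485, 1269 and 1732 bp, all lay upstream, at edge distances of 70, 2080 and 4245 bp, with folds of 53.3, 27.3 and 22.4. Together they covered 4486 bp of a stretch of 5907 bp (75.9%). The other is Zm00001d039032 on chromosome 6 (168945257 to 168948458, plus strand), a gene with 8 peaks in all. Its 3 broad peaks, of 1215, 1335 and 1364 bp, likewise lay upstream, at 723, 2043 and 4773 bp, with folds of 85.2, 18.2 and 37.5. They covered 3914 bp of 5414 bp (72.3%). At both genes the broad peak nearest to the start had the highest fold of the 3.

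Of the 1035 genes with a broad peak, 689 (66.6%) had at least 2 peaks and 59 had at least 5. A gene with more peaks has more chances that 1 of them is broad, so these shares were counted again per peak and assigned gene. The gene had another peak for 750 of 1096 broad pairs (68.4%, 65.6 to 71.2%) and for 11613 of 20323 narrower ones (57.1%, 56.5 to 57.8%). This count was added after seeing the data, and the intervals cover counting error only, since pairs of 1 gene are not independent. Genes with a broad peak were somewhat shorter, with a median of 2562 bp (quartiles 1154 and 4579 bp) against 2961 bp (1321 and 5250 bp) in the 12912 genes with narrower peaks only, and 22.0% against 18.8% were under 1000 bp. They were spread over both strands, with 508 of 1035 on the plus strand.

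Broad peaks bridged neighbouring genes more often than narrower ones. Assignment to 2 genes was found for 47 of 1049 (4.48%, 3.31 to 5.91%), against 1.41% (1.25 to 1.59%) of narrower peaks for 2 or more genes, and no broad peak had more than 2. A wider peak reaches more genes, and how far the difference follows from reach alone was not tested. Among the 47, the 2 genes lay on the same strand without overlapping each other in 20 cases. In 11 cases non-overlapping genes pointed away from each other, and in all 11 the peak covered both starts. Examples by the naming rule are on chromosome 1. A peak of 1356 bp (7563360 to 7564715) with a fold of 80.6 overlapped the end of Zm00001d027532 and the start of Zm00001d027533, with its summit 145 bp upstream of the latter. The next peak, of 1693 bp (7565113 to 7566805), had a fold of 16.5. It lay inside Zm00001d027533 and touched the end of Zm00001d027534. A peak of 1207 bp (298704800 to 298706006) with a fold of 26.6 had its summit between the end of Zm00001d034643, 15 bp away, and the start of Zm00001d034644, 210 bp away.

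Along the chromosomes, broad peaks were concentrated towards the ends. Each chromosome was cut into 10 segments of equal length. The outermost segments held 452 broad peaks, or 1.07 per Mb, and segments 4 to 6 held 73, or 0.116 per Mb, a ratio of 9.29 (exact 95% interval 7.24 to 12.1). The ratio for narrower peaks was 5.11 (4.87 to 5.36). The quotient of these ratios was 1.82 (Wald interval on the log scale 1.41 to 2.34), and among peaks with a fold of at least 35.4, with ratios of 8.28 and 6.19, it was 1.34 with an interval that includes 1 (0.92 to 1.95). The latter comparison was chosen after seeing the data. On 9 of the 10 chromosomes the ratio for broad peaks ran from 4.15 to 24.5, and on the other no broad peak lay in the middle segments. Broad peaks made up 5.84% of the listed peaks in the last segment (5.18 to 6.56%) and 2.90% and 2.78% in segments 5 and 6 (1.70 to 4.60% and 1.88 to 3.94%). The median fold of broad peaks showed no such gradient, at 45.6 in segment 5, which held 17 of them, and 36.1 in the last. The table is restricted to the neighbourhood of genes, and gene density was not analysed here.

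**Figure D5:**
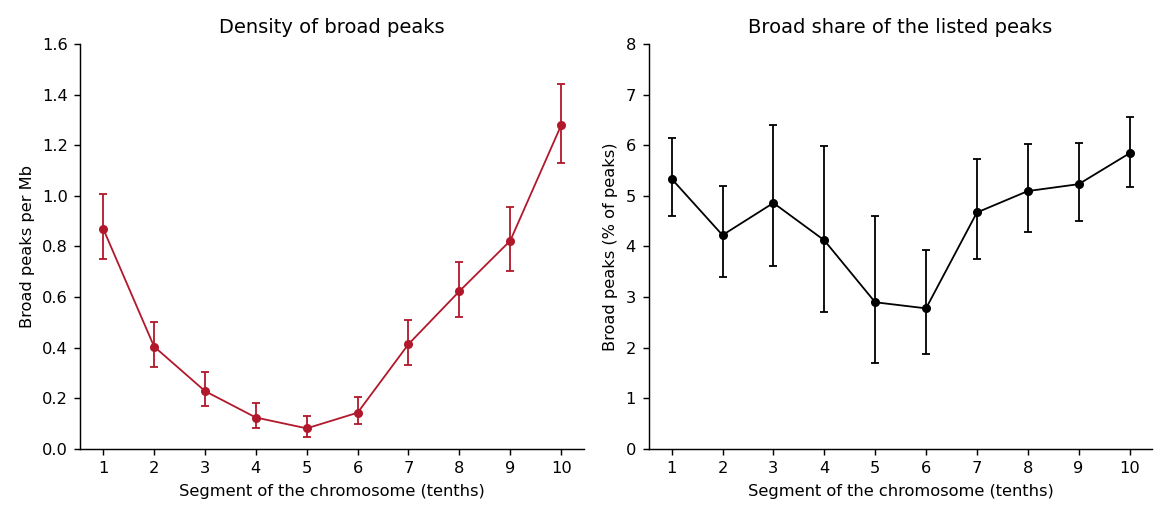
Broad peaks per Mb (left, exact Poisson 95% intervals) and as a percentage of all listed peaks under the rule (right, exact binomial 95% intervals) in 10 equal segments along the chromosomes, pooled over 10 chromosomes. The density falls from 0.87 per Mb in the first segment to 0.081 in segment 5 and reaches 1.28 in the last, and the broad share is lowest in segments 5 and 6.

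Between chromosomes, chromosome 5 had most broad peaks for its extent, with 146 peaks or 0.65 per Mb, and chromosome 4 fewest, with 61 or 0.25 per Mb (exact Poisson 95% intervals 0.55 to 0.77 and 0.19 to 0.32). The share of a chromosome's peaks that were broad was 5.83% on chromosome 5 (4.94 to 6.82%), 3.36% on chromosome 4 (2.58 to 4.29%) and 3.56% on chromosome 10 (2.64 to 4.67%). On the other 7 chromosomes it lay between 4.85% and 5.57%, within each other's intervals. Median widths varied between 1364 bp on chromosome 2 and 1480 bp on chromosome 5.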

How the data were processed

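Per the submitters' processing notes, fastp 0.21.0, Bowtie2 2.4.2, SAMtools 1.11 and MACS2 were used. The peak names record duplicate removal and an effective genome size of 700 Mb. The authors' deposited table gives, per peak and gene, summit values for the fold (linear ratio, ChIP to input), the −log10 p-value and the −log10 q-value, a score of 10 times the last, the summit offset and the gene distance in bp. Peaks were called once, on 1 ChIP library against 1 input library. Of peak numbers up to 25889, 4452 are absent.

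Pileup and input level were solved from fold and p-value with the Poisson formulas of MACS2, and all 21437 peaks fitted within a relative error of 1e-05. In simulated data the solution returned the true values for 100% of 2000 peaks, but the simulated input levels did not reach values such as 18.8 or 72.9. The position class was right for 100% of 21079. Those points were placed by the same definitions, so this checks only the code. Input more than 1% above the floor of 1.85, which depends on the genome size, was called raised. Read totals are not in the table, so depth is given as pileup.

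Summits were classed by gene strand. Differences of shares have intervals combined from exact Clopper-Pearson 95% intervals, and no p-value was computed. Members, lists and comparisons were chosen with earlier results of these data known. Peaks were named by rule: the 10 widest, the 5 of highest and 3 of lowest fold, 3 on each side of the threshold, the strongest per summit class, the 3 genes with most broad peaks, input above 4 times background, and the 3 peaks with most genes. Planned lists of gene symbols gave no value, since 0 of 1035 identifiers are in the RefSeq table. No genome of the files' build was used, so no sequence is printed. Computations ran in Python 3.11.15 (numpy 2.4.6, scipy 1.17.1, pandas 2.3.3), and figures in matplotlib 3.10.9.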

Additional observations from a re-analysis of the deposited data

Results flagged for a closer look

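Peaks of at least 1200 bp also occurred outside the chromosomes, in rows that no comparison above used, and exceeded input there. On the mitochondrial sequence 52 of 122 peaks (42.6%) had this width. Their median fold was 7.18 (range 4.86 to 15.2), their median input level was 18.8, their median width was 2712 bp, and input was raised at 100% of them. On unplaced contigs 11 of 147 peaks (7.48%) had this width, with a median fold of 29.04 and a median width of 1493 bp.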

How the results depend on the processing

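With a threshold of 1000 or 1500 bp there were 1826 or 446 broad peaks, at 1747 or 450 genes. At 1500 bp the upstream share became 49.2%, the downstream share 32.5% and the share within 500 bp of the start 16.5%. When peak edges set the class, 24.1% of broad peaks were upstream, 58.2% inside and 17.6% downstream, and the difference in share inside genes reversed to 4.95 points, because any overlap then counts as inside. When only the narrower peaks were limited to at least the median broad fold, that difference was 1.69 points, the opposite sign (interval −1.47 to 4.91). With the limit on both sets it was −3.24 points, the sign of the main value, and it was −2.89 points against peaks of 900 bp to under 1200 bp. Asking for 100 bp of peak on both sides of a start lowered the overlap share from 33.9% to 29.1%. A neighbour lay within 1 kb of 47.7% and within 5 kb of 78.3%. Chosen after seeing the data, the difference in share near the start (−18.4 points) was −14.4 with the fold limit on narrower peaks, −13.4 with it on both sets and −6.20 against 900-bp to 1200-bp peaks, and the difference in neighbours (16.2 points) was 3.60, 3.90 and 2.23 in that order. The quotient of end to middle ratios (1.82) was 1.50 with the limit on narrower peaks and 1.34 with it on both sets. In all, 36 of 60 alternatives stayed within the interval of the value reported (for counts, within 1.5 times). No paired analysis was possible because there is 1 library of each kind and no test. The broad peak of lowest pileup rests on 18 reads at its summit, and 1 pair of libraries gives no replicate error.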
